A study of Homo sapiens with 24 samples.

Results

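Myosin II is the motor that pulls on actin filaments in the cell cortex, in stress fibres and in the contractile ring of dividing cells. Each molecule holds a pair of heavy chains, which carry the motor head and the tail that packs into filaments, and on each neck 1 essential and 1 regulatory light chain. Phosphorylation of the regulatory chain by kinases such as MLCK, ROCK and MRCK switches the non-muscle motor on, and a phosphatase switches it off. Neuroblastoma cells use the non-muscle forms for adhesion, migration and division, while the skeletal forms belong to the sarcomeres of striated muscle.

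The genes described here are the 10 myosin II chain genes MYH9, MYH10, MYH14, MYH1, MYH2, MYH3, MYL6, MYL9, MYL12A and MYL12B, chosen by name as non-muscle and skeletal chains and found by Ensembl identifier among the 58735, 61541 and 78932 genes listed in the 3 count tables. RNA from 2 human neuroblastoma lines was sequenced after knockdown of FAM167A (also called DIORA1). In SK-N-SH, a line that mixes neuroblast-like and flat substrate-adherent cells, a pool of siRNAs against the gene (5 libraries) was compared with a non-targeting siRNA control (5 libraries). CRISPR interference was used in SK-N-SH (3 libraries) and in SK-N-AS, another neuroblastoma line (4 libraries). In this method an sgRNA directs a Cas9-based fusion with the KRAB repressor to the gene, to repress it. Both CRISPRi knockdowns had controls with an sgRNA against Gal4, a yeast sequence, in cells of the same line (3 and 4 libraries), so that knockdown and control cells both had the repressor system. The labels do not say whether replicates were separate cultures, nor whether the CRISPRi cells were clones or pools. The p-values therefore measure the spread between these libraries, which may be technical. The study is concerned with FAM167A, a protein linked to the MRCK kinases CDC42BPA and CDC42BPB.

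FAM167A fell in each experiment, with log2 fold changes of -1.53 ± 0.055 with siRNA, -6.23 ± 0.077 with CRISPRi in SK-N-SH and -3.22 ± 0.047 in SK-N-AS (± standard error, SE). The siRNA libraries held 71464698 to 90255175 assigned reads each, the SK-N-SH CRISPRi libraries 11690515 to 21628076 and the SK-N-AS libraries 29985858 to 104455853. A count of 0 allows, at 3 reads, up to 0.0332 to 0.042 CPM, 0.139 to 0.257 CPM and 0.0287 to 0.1 CPM in these sets, counting error only. Among genes with 1 to 20 reads in a library, 87.7 to 91.0% of values were even numbers in SK-N-AS, against 38.7 to 39.9% in SK-N-SH CRISPRi and 59.0 to 62.6% with siRNA. If both mates of a pair were counted in SK-N-AS, read totals and low counts there stand for fewer fragments and the limit at 0 reads is too low, which was not tested. Levels are given in CPM (reads of a gene relative to the library's size, scaled to a common base), adjusted by TMM factors within each experiment, and changes as log2 fold change of knockdown over control ± SE. A gene is said to have risen or fallen where edgeR's quasi-likelihood test gave a Benjamini-Hochberg adjusted p under 0.05 over all genes tested in that experiment. In a bulk sample, fewer cells of a type and less RNA per cell cannot be told apart.

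MYH9, the heavy chain of non-muscle myosin IIA, rose with CRISPRi in both lines and did not pass the test with siRNA. With CRISPRi in SK-N-SH the controls stood at 1703, 1489 and 1552 CPM and the knockdown libraries at 2938, 3008 and 2870.0 CPM. All knockdown libraries lay above all controls. The mean went from 1581 ± 110.2 to 2939 ± 68.8 CPM (SD, n = 3), 1.86-fold (log2 0.89 ± 0.045, adjusted p = 3.94e-19, edgeR). By mean level MYH9 ranked 24 of 15391 tested genes in that experiment, and its rise ranked 603 from the highest.

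In SK-N-AS the MYH9 controls stood at 310.2, 299, 292 and 306 CPM and the knockdown libraries at 398, 404, 389.7 and 381 CPM. The groups did not overlap. The rise, from 302 ± 7.86 to 393 ± 9.76 CPM (SD, n = 4), was 1.30-fold (log2 0.38 ± 0.026, adjusted p = 3.18e-14, edgeR). With siRNA the controls lay at 934, 928, 905, 975 and 908 CPM and the knockdown libraries at 841, 924, 1051, 968 and 856 CPM. Here the knockdown libraries spread on either side of the controls. The means were 930 ± 28 and 928 ± 85.8 CPM (SD, n = 5), with a log2 fold change of -0.003 ± 0.055 (adjusted p = 0.986, edgeR), whose sign changed with the scaling.

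MYH10, the heavy chain of non-muscle myosin IIB and the more abundant form in neurons, moved in opposite directions in the CRISPRi experiments. In SK-N-SH its controls stood at 341, 346 and 338 CPM and its knockdown libraries at 552, 567 and 537 CPM, a clear separation upwards. The log2 fold change was 0.69 ± 0.038 (1.61-fold, adjusted p = 2.66e-18, edgeR). In SK-N-AS its controls stood at 173, 172, 173 and 171 CPM and its knockdown libraries at 131, 134, 134 and 133 CPM. Every knockdown library lay below every control, and MYH10 was the member that fell (log2 -0.37 ± 0.027, adjusted p = 1.55e-13, edgeR).

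With siRNA, MYH10 lay at 387, 379, 386, 365 and 385 CPM in controls and at 419, 416, 451, 424 and 374 CPM after knockdown. A single knockdown library, replicate 5, lay among the controls and the others lay above them. The log2 fold change of 0.13 ± 0.046 did not pass (adjusted p = 0.0772, edgeR; 0.0131 to 0.236 over the alternatives), and passed without knockdown replicate 5 (0.17, adjusted p = 0.0131). It also passed with DESeq2 (adjusted p = 0.0324) and with upper quartile scaling (0.0327).

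MYH14, the heavy chain of non-muscle myosin IIC and a form of epithelia and the inner ear, was close to absent. It had 9 control and 7 knockdown reads over all siRNA libraries, 1 and 1 in SK-N-SH CRISPRi and 2 and 10 in SK-N-AS. Its highest level in any library was 0.124 CPM. It passed the filter on low counts in no experiment and was not tested.

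**Figure D1:**
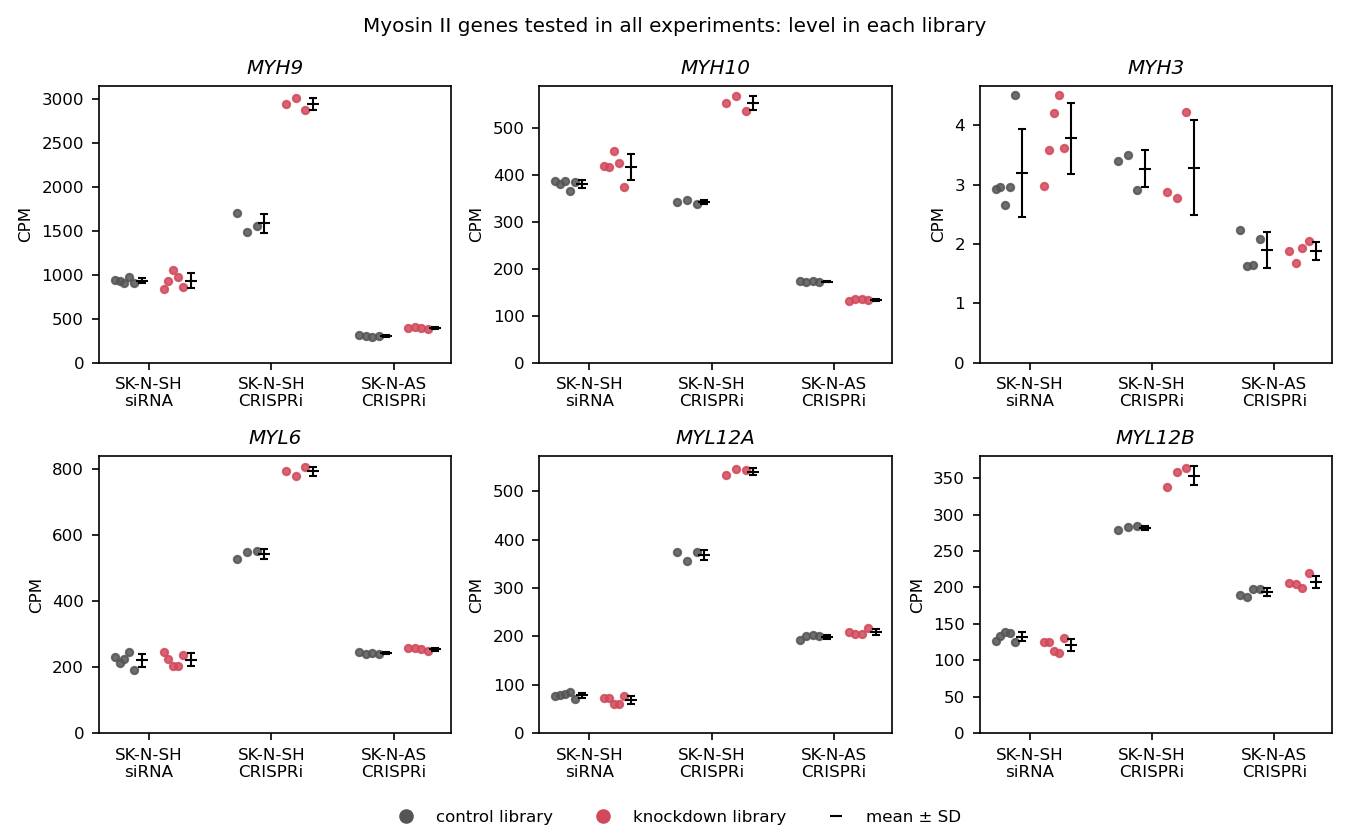
CPM of the 6 members tested in all experiments, each point a library, with mean ± SD beside each group (siRNA 5 and 5, SK-N-SH CRISPRi 3 and 3, SK-N-AS CRISPRi 4 and 4 libraries). In SK-N-SH CRISPRi the knockdown points of MYH9, MYH10, MYL6, MYL12A and MYL12B lie above all controls, and in SK-N-AS those of MYH10 lie below, from 131 to 134 against 171 to 173 CPM.

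The balance between the non-muscle heavy chains was taken as each gene's share of the summed reads per kilobase of MYH9, MYH10 and MYH14. MYH9 made up 64.2, 63.5, 62.8 and 64.2% of this pool in the SK-N-AS controls and 75.2, 75.01, 74.3 and 74.1% after knockdown. The share thus differed by 11.01 percentage points, against an SD of at most 0.672 points within a group. The ratio of MYH9 to MYH10, per kilobase, went from 1.75 ± 0.05 to 2.95 ± 0.082 (SD, n = 4). In SK-N-SH CRISPRi, where both genes rose, the MYH9 share went from 83.3, 81.2 and 82.1% to 84.2, 84.1 and 84.2%, groups that did not overlap. With siRNA it went from 71.0 ± 1.08% to 69.0 ± 1.29% (SD, n = 5), with all knockdown libraries (66.7 to 70.0%) below all controls (70.1 to 72.8%), while neither gene passed on its own. Summed over the pool, the heavy chains had 213 ± 12.1 RPKM (CPM per kilobase of gene length) in the SK-N-SH CRISPRi controls and 387 ± 9.31 RPKM after knockdown. The sums were 52.6 ± 0.833 and 58.4 ± 1.1 RPKM in SK-N-AS, and 145 ± 2.24 and 149 ± 12.1 RPKM with siRNA. The shares are given as a description, with no test.

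**Figure D2:**
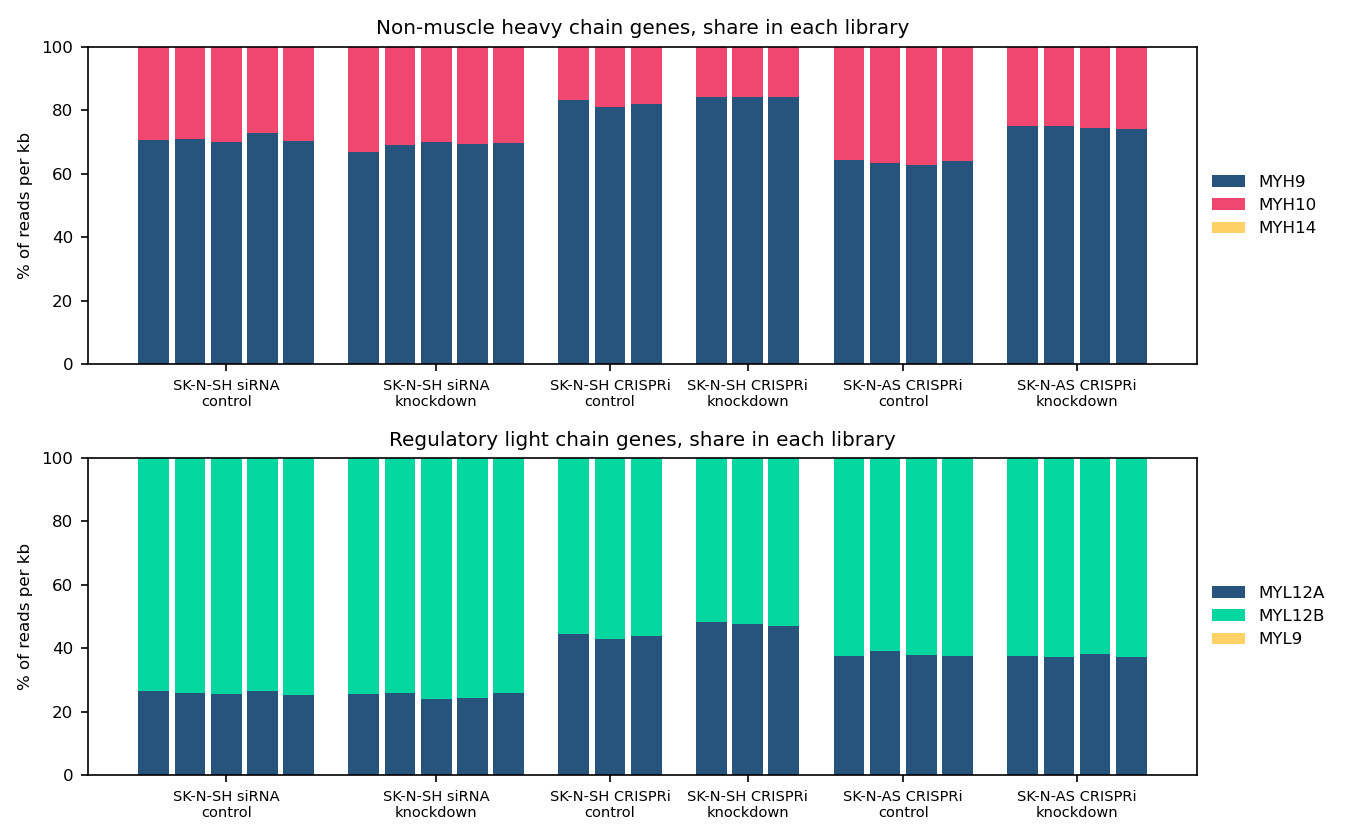
Share of each non-muscle heavy chain gene (top) and each regulatory light chain gene among the members (bottom) in the summed reads per kilobase of its pool, one bar a library. The MYH9 part is taller after knockdown in SK-N-AS (74.1 to 75.2% against 62.8 to 64.2%), and MYH14 and MYL9 are too rare to be seen.

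MYH1 and MYH2, the heavy chains of the fast skeletal fibre types IIx and IIa, were nearly silent in all controls and had reads in every SK-N-SH CRISPRi knockdown library. MYH1 (GRCh38 chromosome 17, 10492307 to 10518542, minus strand) had 6, 0 and 8 reads in the controls and 78, 92 and 91 after knockdown, or 0.496, 0 and 0.353 against 5.1, 6.21 and 5.81 CPM. MYH2 (10521148 to 10549700, minus strand), its neighbour, had 1, 3 and 6 reads in the controls and 60, 50 and 67 after knockdown, or 0.0827, 0.198 and 0.265 against 3.92, 3.37 and 4.28 CPM. No knockdown library overlapped the controls for either gene.

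The log2 fold changes were 4.31 ± 0.32 for MYH1 (adjusted p = 1.16e-13) and 4.22 ± 0.33 for MYH2 (adjusted p = 1.03e-13, edgeR), ranks 5 and 6 from the highest among 15391 tested genes. Both passed the filter on low counts only through the knockdown libraries, so that a gene of this kind had to differ to be tested at all. By mean CPM over all libraries of the experiment they ranked 12417 and 13066. Per kilobase, MYH1 reached 0.947 ± 0.093 RPKM (SD, n = 3), against 326 ± 7.63 RPKM for MYH9 in the same libraries. With siRNA, MYH1 had 17 control and 34 knockdown reads and MYH2 had 3 and 5, over 5 libraries each. In SK-N-AS neither gene had a read in any of the 8 libraries. Neither was tested in those experiments.

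MYH1 and MYH2 share 91.1% of their coding bases (5300 of 5817 aligned), and 7.44% and 5.30% of the 100-base windows of their transcripts occur unchanged in another gene's transcript, so a part of their reads could belong to a relative. Their promoters are shown because these neighbouring genes moved together. The 150 bases before each RefSeq start (GRCh38.p14, chr17:10518543-10518692 and chr17:10549659-10549808, both read on the minus strand) follow, with TATAAA in capitals.
MYH1: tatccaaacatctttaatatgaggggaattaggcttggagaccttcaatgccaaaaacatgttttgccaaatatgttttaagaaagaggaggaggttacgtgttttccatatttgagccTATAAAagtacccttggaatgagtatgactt
MYH2: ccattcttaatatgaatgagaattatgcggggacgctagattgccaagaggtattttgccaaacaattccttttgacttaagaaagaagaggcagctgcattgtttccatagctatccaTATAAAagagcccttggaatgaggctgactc

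TATAAA begins 31 bases before the start in both, and 10.7% of 35116 RefSeq promoters hold it in the 250 bases before the start, on either strand. The printed stretches agree at 101 of 141 aligned bases (71.6%). GC content over the 250 bases was 33.6% for MYH1 and 36.4% for MYH2, against a median of 58% for all promoters, 71.6% for MYH9 and 67.2% for MYH10. CANNTG, the letters of an E-box, which is bound by the muscle regulators MYOD1 and MYOG among others, had no match in the 250 bases of MYH1 and 1 in those of MYH2, and 61.8% of all promoters held at least 1. The RefSeq table held promoters of 8 of the 10 members.

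Markers of skeletal muscle were counted in the same libraries. In SK-N-SH CRISPRi none of 14 markers passed the filter, and MYOD1, MYOG, MYF5 and MYF6, the muscle-determining factors, had 0 reads, as did CKM (muscle creatine kinase) and TNNT3 (fast troponin T). The summed level of the list ranged from 0.579 to 1.15 CPM in controls and from 1.5 to 2.62 CPM after knockdown. TTN, the giant sarcomere protein, had 7 control and 40 knockdown reads there. It had 21185 and 25152 reads in the siRNA experiment, where MYH1 and MYH2 had almost none. TTN counts thus differed widely between experiments in the same line, already in controls. The cause was not tested, and TTN reads are not compared across the experiments. The part of muscle cells or of a muscle programme in the MYH1 and MYH2 reads was not tested.

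MYH3, the embryonic skeletal heavy chain, was read in all libraries at low levels and did not pass in any experiment. Its means were 3.2 ± 0.744 and 3.78 ± 0.595 CPM with siRNA (SD, n = 5), 3.27 ± 0.313 and 3.29 ± 0.806 CPM in SK-N-SH CRISPRi (n = 3) and 1.9 ± 0.307 and 1.88 ± 0.153 CPM in SK-N-AS (n = 4). The groups overlapped in each. The log2 fold changes were 0.24 ± 0.14, 0.03 ± 0.19 and -0.03 ± 0.15 (adjusted p = 0.344, 0.897 and 0.902, edgeR). Control replicate 5 of the siRNA set, at 4.51 CPM, stood above the other controls (2.65 to 2.96 CPM), and without it the siRNA change was 0.39 (adjusted p = 0.038). MYH3 lies in the same cluster on chromosome 17 as MYH1 and MYH2, at 10628526 to 10657309.

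**Figure D3:**
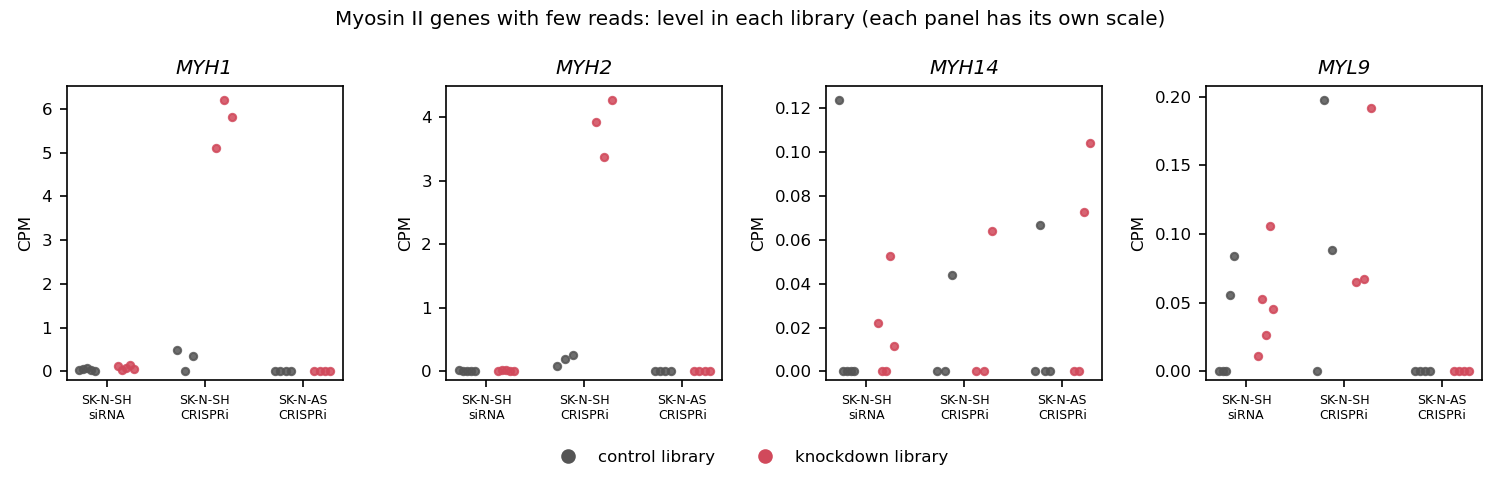
CPM of the 4 members with few reads, each point a library, each panel on its own scale from 0. MYH1 and MYH2 stand at 3.37 to 6.21 CPM in the SK-N-SH CRISPRi knockdown libraries, while MYH14 and MYL9 stay under 0.2 CPM throughout.

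MYL6, the essential light chain of smooth muscle and non-muscle myosin, rose in SK-N-SH CRISPRi from 526, 548 and 553 to 793, 781 and 807 CPM. The separation between groups was wide against the spread within them (log2 0.55 ± 0.038, 1.46-fold, adjusted p = 2.78e-15, edgeR). In SK-N-AS the controls at 246, 240.0, 244 and 240.0 CPM and the knockdown libraries at 257, 256, 254 and 249 CPM did not overlap, but lay close together. The change of 0.07 ± 0.025 passed narrowly (adjusted p = 0.0456, edgeR; 0.0164 to 0.239 over the alternatives). It failed when knockdown replicate 1 (0.111), 2 (0.0799) or 3 (0.0699) or control replicate 2 (0.106), 3 (0.0704) or 4 (0.106) was left out, and when the filter on low counts was dropped (0.239). With siRNA the means were 221 ± 19.8 and 222 ± 19.3 CPM (SD, n = 5; log2 0.01 ± 0.065, adjusted p = 0.968, edgeR).

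The regulatory light chains among the members are encoded by 3 closely related genes. The first 72 coding bases (GENCODE v29 transcripts, GRCh38) are shown because the phosphorylated threonine and serine lie there. The codons of this pair, in capitals, are codons 19 and 20 of MYL9 and MYL12B and 18 and 19 of MYL12A, counted from the start codon.
MYL9: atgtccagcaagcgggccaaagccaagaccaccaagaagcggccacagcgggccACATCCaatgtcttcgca
MYL12A: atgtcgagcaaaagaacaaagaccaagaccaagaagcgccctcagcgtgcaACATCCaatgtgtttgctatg
MYL12B: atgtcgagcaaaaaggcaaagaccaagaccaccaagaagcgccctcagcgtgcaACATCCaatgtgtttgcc

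The 6 bases in capitals are the same in the 3 genes. MYL12A and MYL12B agree at 95.7% of 513 aligned coding bases, and MYL9 matches them at 79.3% and 80.8%. None of their transcripts' 100-base windows occurs unchanged in another gene. In the deposited tables MYL12A (chromosome 18, 3247481 to 3256236) and MYL12B (3261479 to 3278461) lie side by side on the plus strand.

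MYL9, the regulatory chain of smooth muscle and of many adherent cells, had almost no reads, with 10 control and 19 knockdown reads over all siRNA libraries, 5 and 5 in SK-N-SH CRISPRi and 0 and 0 in SK-N-AS. It was tested in no experiment. Among the members, the regulatory chain pool was therefore MYL12A and MYL12B, the forms found in most cells. Light chains outside the members, such as MYL5, were not counted in this pool.

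MYL12A rose in SK-N-SH CRISPRi from 374, 356 and 374 to 533, 546 and 544 CPM, with the groups well apart (log2 0.56 ± 0.038, 1.47-fold, adjusted p = 1.73e-15, edgeR). MYL12B rose less there, from 278, 283 and 284 to 339, 359 and 364 CPM (0.33 ± 0.039, 1.26-fold, adjusted p = 3.71e-09, edgeR). The MYL12A share of regulatory chain reads per kilobase went from 44.5, 42.8 and 43.9% to 48.4, 47.5 and 47.1%, without overlap. The summed level of the regulatory chains went from 259 ± 2.95 to 350 ± 8.99 RPKM (SD, n = 3).

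In SK-N-AS, MYL12A stood at 192, 201, 203 and 201 CPM in controls and at 209.9, 204, 205 and 218 CPM after knockdown. The lowest knockdown library lay just above the highest control, and the change of 0.07 ± 0.028 just passed (adjusted p = 0.0493, edgeR; 0.0203 to 0.196 over the alternatives). It failed without knockdown replicate 1 (0.0913) or 4 (0.177), without any single control (0.118, 0.0617, 0.0519 and 0.0629 for replicates 1 to 4) and without the filter on low counts (0.196). MYL12B rose from 190.2, 187, 198 and 198 to 207, 205, 199 and 219 CPM (0.10 ± 0.03, adjusted p = 0.00946, edgeR), and failed without knockdown replicate 4 (0.0649). The MYL12A share was 38.0 ± 0.664% and 37.5 ± 0.422% (SD, n = 4), with overlapping groups.

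With siRNA, MYL12A stood at 77, 78.3, 80.1, 84 and 70.5 CPM in controls and at 72.3, 72.7, 60.2, 59.2 and 77 CPM after knockdown. The groups overlapped, with knockdown replicates 3 and 4 lowest. The change of -0.19 ± 0.071 did not pass (adjusted p = 0.119, edgeR; 0.00187 to 0.266 over the alternatives), and passed without knockdown replicate 5 (-0.24, adjusted p = 0.0269). MYL12B was likewise at -0.13 ± 0.047 (adjusted p = 0.0867, edgeR), and passed without knockdown replicate 5 (0.0285) or control replicate 5 (0.0347). The summed regulatory chains were 92.5 ± 4.66 and 83.5 ± 6.87 RPKM (SD, n = 5).

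Of the 6 members tested with siRNA, none passed in edgeR at an adjusted p under 0.05, where 9.53% of all genes tested did (2.55% up, 6.98% down). The groups overlapped for all 6, against 8.74% of genes without overlap. DESeq2 called 1, and 3 had an unadjusted p under 0.05 in edgeR. Without knockdown replicate 5, 3 passed (MYH10 up, MYL12A and MYL12B down), and without control replicate 5, 2 (MYH3 up, MYL12B down). Of all calls in that experiment 26.7% were rises, or 43.3% with upper quartile scaling. In SK-N-SH CRISPRi 5 members rose (MYH9, MYH10, MYL6, MYL12A and MYL12B) of the 6 that were tested in every experiment, where 27.7% of genes rose, 28% fell, 55.8% changed in either direction and 60.7% had groups that did not overlap. MYH1 and MYH2, which had to differ to be tested, also rose and are left out of this count. By mean CPM the 5 ranked from 24 (MYH9) to 459 (MYL12B) of 15391 tested genes, and MYH3, which did not pass, ranked 12259. Small changes are more readily called at high counts. The share called among genes of like level was not computed for any experiment. In SK-N-AS 4 of 6 rose and 1 fell, against 15.2% and 15.5% of all genes (30.6% in either direction), and 29.1% of genes had groups that did not overlap. The median log2 fold change over all genes tested was 0.01, -0.01 and -0.002 in the 3 experiments. The lower and upper quartiles of all genes lay at -0.26 and 0.24 in SK-N-SH CRISPRi and at -0.12 and 0.16 in SK-N-AS.

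**Figure D4:**
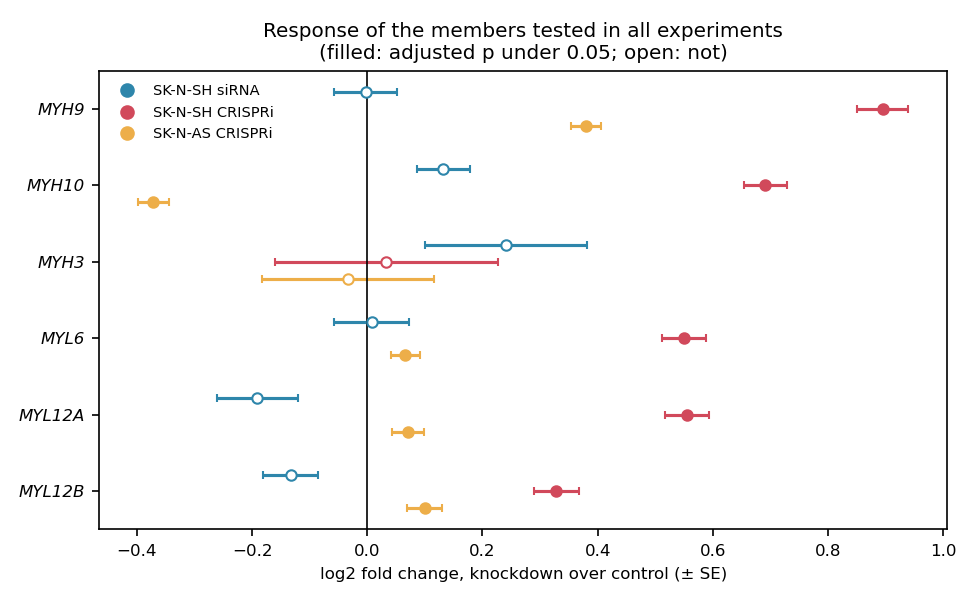
Log2 fold change ± SE of knockdown over control for the 6 members tested in all experiments, with filled points at an adjusted p under 0.05. MYH10 lies at 0.69 in SK-N-SH CRISPRi and at -0.37 in SK-N-AS CRISPRi, and all siRNA points are open.

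The difference between the responses was tested as an interaction over both experiments, each with its own controls. Between CRISPRi and siRNA in SK-N-SH, 31.4% of all genes differed. Among the members, MYH9 (0.89 ± 0.081, adjusted p = 5.71e-11), MYH10 (0.55 ± 0.069), MYL6 (0.53 ± 0.095), MYL12A (0.74 ± 0.1) and MYL12B (0.45 ± 0.073) all responded more strongly upwards with CRISPRi (adjusted p at most 6.43e-05 for these 5, edgeR). MYH1 differed by 3.47 ± 0.82 (adjusted p = 0.000966, edgeR). MYH1 and MYH2 entered this test through their reads in the SK-N-SH CRISPRi knockdown libraries, and their siRNA side rests on the few reads given above. MYH2 differed by 3.77 ± 1.5, at the threshold (adjusted p = 0.0473, edgeR; 0.00799 to 0.419 over the alternatives), and failed in 12 of 22 alternatives. Those were the omission of any SK-N-SH CRISPRi knockdown library (0.0599 to 0.0785), of control replicate 1 (0.0742) or 2 (0.0638) there, of siRNA knockdown replicate 1 (0.0558), 4 (0.061) or 5 (0.0643), of siRNA control replicate 1 (0.419) or 2 (0.125), the replicate block (0.0702), and no filter on low counts (0.0571). MYH3 did not differ detectably (-0.22 ± 0.27, adjusted p = 0.61, edgeR). Method, extent of FAM167A knockdown, library kit, depth and the genes listed all differ between these experiments and cannot be told apart.

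Between the CRISPRi experiments in SK-N-SH and SK-N-AS, 30.7% of all genes differed. MYH10 differed most among the members, by 1.08 ± 0.044 (adjusted p = 4.29e-25, edgeR), having moved in opposite directions. MYH9 (0.53 ± 0.047), MYL6 (0.50 ± 0.043), MYL12A (0.50 ± 0.045) and MYL12B (0.24 ± 0.049) rose more in SK-N-SH (adjusted p at most 0.0001, edgeR). MYH3 differed by 0.08 ± 0.26 (adjusted p = 0.9, edgeR), and MYH1 and MYH2 could not be compared for want of reads in SK-N-AS. Cell line, extent of FAM167A knockdown, depth, the genes listed and the share of even low counts all differ between these experiments. They cannot be told apart in this difference, and both tests use the SK-N-SH CRISPRi libraries.

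Control levels also differed between experiments, whose tables were normalised separately. Cell line, method, depth, the genes listed and the share of even low counts also vary over these experiments. They cannot be told apart in these levels. CDC42, outside the members, stood at 1.51 CPM in the siRNA controls, 231 CPM in SK-N-SH CRISPRi and 2.66 CPM in SK-N-AS. The tables may count genes differently, which was not tested. MYH9 stood at 1581 ± 110.2 CPM in the SK-N-SH CRISPRi controls, 930 ± 28 CPM in the siRNA controls of the same line and 302 ± 7.86 CPM in SK-N-AS (SD, n = 3, 5 and 4). MYH10 followed another order, at 342 ± 3.64, 380.3 ± 9.22 and 172 ± 1.02 CPM. MYL12A stood at 368 ± 10.5, 78 ± 4.97 and 199 ± 4.75 CPM, with MYL12B at 282 ± 2.99, 132 ± 6.28 and 194 ± 5.76 CPM. Within a gene no control library of one experiment overlapped those of another for these 4. Per kilobase of the gene length in the siRNA table, the means in the SK-N-SH CRISPRi controls ran from MYH9 (175 ± 12.2 RPKM) through MYL12B (146 ± 1.55), MYL6 (118 ± 3.07) and MYL12A (113 ± 3.22) to MYH10 (37.9 ± 0.404). In the siRNA controls they ran from MYH9 (103 ± 3.1 RPKM) through MYL12B (68.5 ± 3.25), MYL6 (47.9 ± 4.29) and MYH10 (42.2 ± 1.02) to MYL12A (24 ± 1.53). In the SK-N-AS controls they ran from MYL12B (100.2 ± 2.98 RPKM) through MYL12A (61.4 ± 1.46), MYL6 (52.6 ± 0.683) and MYH9 (33.5 ± 0.872) to MYH10 (19.1 ± 0.113).

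The order rests on the lengths. The gene length exceeds that of the GENCODE transcript for MYL6 (4609 against 901 bases), MYL12A (3245 against 1229) and MYL12B (1932 against 1210). With the transcript length, an alternative chosen after the data were seen, MYL6 came first and MYH10 last in all 3 sets of controls. In SK-N-SH CRISPRi the levels were then 602 ± 15.7 for MYL6, 299 ± 8.51 for MYL12A, 233 ± 2.47 for MYL12B, 209 ± 14.6 for MYH9 and 44.6 ± 0.475 CPM per kilobase for MYH10, with MYH9 below rather than above the light chains. In the siRNA controls MYL6 stood at 245 ± 21.9, MYH9 at 123 ± 3.7, MYL12B at 109 ± 5.19, MYL12A at 63.4 ± 4.04 and MYH10 at 49.6 ± 1.2 CPM per kilobase. In SK-N-AS MYL6 stood at 269 ± 3.49, MYL12A at 162 ± 3.87, MYL12B at 160 ± 4.76, MYH9 at 40.0 ± 1.04 and MYH10 at 22.5 ± 0.133 CPM per kilobase, of which MYL12A and MYL12B did not differ beyond their spread. MYH10 below MYH9 held with both lengths in each experiment.

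Counts over the further genes of the pathway are to be read against the shares of all tested genes, 27.7% up and 28% down in SK-N-SH CRISPRi, 15.2% and 15.5% in SK-N-AS and 2.55% and 6.98% with siRNA. Of 16 other myosin II chains, of smooth, cardiac and further skeletal forms, 6 passed the filter on low counts with siRNA, 2 in SK-N-SH CRISPRi and 4 in SK-N-AS. Of the 2 tested in SK-N-SH CRISPRi, MYL5 rose (0.60 ± 0.085) and MYL6B, an essential chain like MYL6, fell (-0.24 ± 0.047). In SK-N-AS, MYL6B also fell (-0.16 ± 0.03) and MYL5 rose (0.25 ± 0.067), with MYH7B up from 0.0771 to 0.258 CPM. None of 6 tested passed with siRNA.

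Among 17 kinases that act on the regulatory chain, 8 rose and 3 fell of 15 tested in SK-N-SH CRISPRi, 73.3% against 55.8% of all genes, with a median log2 fold change of 0.15 (-0.01 over all genes). MYLK, the myosin light chain kinase, rose from 397 to 743 CPM (0.91 ± 0.042), STK17A from 99.1 to 192 CPM (0.96 ± 0.042) and CDC42BPA (MRCK alpha) from 145 to 205 CPM (0.50 ± 0.044). DAPK1, a death-associated kinase, fell from 31.3 to 8.72 CPM (-1.84 ± 0.092). In SK-N-AS 5 rose and 1 fell of 17, 35.3% called against 30.6% of all genes, with MYLK at 0.23 ± 0.04, STK17A at 0.23 ± 0.038 and STK17B at 0.57 ± 0.052, and PAK1 lower (-0.18 ± 0.049). With siRNA 2 rose and 1 fell of 17: ROCK2 rose (0.18 ± 0.041) and so did MYLK3 (0.87 ± 0.25), from 0.398 to 0.732 CPM. MYLK fell with siRNA (-0.35 ± 0.049).

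The myosin phosphatase list holds 9 genes, of which 8 were tested in each experiment. In SK-N-SH CRISPRi 4 rose and 2 fell, with a median of 0.16. PPP1R12A, the targeting subunit MYPT1, rose there (0.54 ± 0.043) and with siRNA (0.18 ± 0.042). The related subunit PPP1R12B rose in SK-N-SH CRISPRi (0.64 ± 0.062) and fell in SK-N-AS (-0.27 ± 0.044). The catalytic subunits PPP1CB (-0.17 ± 0.044) and PPP1CC (-0.18 ± 0.04) fell in SK-N-SH CRISPRi, and PPP1CA fell in SK-N-AS (-0.16 ± 0.029) and with siRNA (-0.19 ± 0.049). In SK-N-AS none rose and 3 fell, and with siRNA 1 rose and 2 fell.

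Of 14 genes for myosin folding and filament assembly, 12 were tested in SK-N-SH CRISPRi, where 4 rose and 2 fell, 50% called against 55.8% of all genes. That share is no larger than the background. S100A4, which binds the MYH9 tail and takes filaments apart, rose from 15.3 to 29.5 CPM (0.95 ± 0.079). SVIL (supervillin), which binds myosin II, rose there (1.07 ± 0.046) and fell with siRNA (-0.47 ± 0.047) and in SK-N-AS (-0.14 ± 0.028). UNC45A, the chaperone of non-muscle myosin, rose with siRNA (0.14 ± 0.036). The counts elsewhere were 2 up and 2 down of 13 with siRNA and 1 up and 3 down of 11 in SK-N-AS.

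A list of 15 genes around the RhoA switch, upstream of ROCK, also held CDC42 and RAC1. In SK-N-SH CRISPRi 10 rose and 2 fell of 14 tested (median 0.20), 85.7% called. CDC42 (0.24 ± 0.038) and RAC1 (0.19 ± 0.038) were among those rises, and activators and inhibitors of RhoA were counted alike. RHOC went from 99.3 to 173 CPM (0.80 ± 0.044) and the exchange factor ARHGEF2 from 106 to 147 CPM (0.48 ± 0.046). Both fell with siRNA (RHOC -0.38 ± 0.085, ARHGEF2 -0.28 ± 0.037), where none of 15 rose and 3 fell. In SK-N-AS 2 rose and 3 fell of 15, among them ARHGEF12 up (0.20 ± 0.03) and ARHGDIA down (-0.19 ± 0.03).

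Of 24 stress fibre proteins, the actin-side partners of myosin II, 21 rose and 2 fell in SK-N-SH CRISPRi, with a median of 0.65, 95.8% called against 55.8% of all genes. VCL (vinculin) went from 591 to 1168 CPM (0.98 ± 0.041), TPM1 (a tropomyosin) from 1068 to 2038 CPM (0.93 ± 0.04) and TAGLN (transgelin) from 893 to 1722 CPM (0.95 ± 0.041). LIMCH1, an activator of non-muscle myosin II, fell from 70.2 to 18 CPM (-1.97 ± 0.067). In SK-N-AS 8 rose and 7 fell of 23 (median 0.04), with TPM1 (1.08 ± 0.026), TPM2 (0.90 ± 0.051) and VCL (0.39 ± 0.027) up and CNN3 down (-0.57 ± 0.029). With siRNA 3 rose and 3 fell of 24, with TAGLN (0.63 ± 0.064) and TPM1 (0.23 ± 0.039) up and ZYX (-0.27 ± 0.053) and ACTA2 (-0.35 ± 0.072) down. Both ZYX (0.72 ± 0.046) and ACTA2 (0.69 ± 0.043) rose in SK-N-SH CRISPRi. In SK-N-AS ACTA2 rose (0.93 ± 0.072) and ZYX did not pass.

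Unconventional myosins, the single-headed and cargo-carrying relatives, gave 8 up and 3 down of 13 in SK-N-SH CRISPRi (median 0.16), 4 up and 3 down of 14 in SK-N-AS, and none up and 4 down of 14 with siRNA. MYO1D (1.16 ± 0.043) and MYO1E (1.11 ± 0.064) rose in SK-N-SH CRISPRi and fell with siRNA (-0.34 ± 0.052 and -0.17 ± 0.052). MYO10, the filopodial myosin, rose in SK-N-SH CRISPRi (0.74 ± 0.062) and in SK-N-AS, there from 5.56 to 11.8 CPM (1.08 ± 0.073). With siRNA MYO10 fell (-0.34 ± 0.046).

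Markers of the cell states found in neuroblastoma moved in the same libraries. Their counts, too, are to be read against the shares of all tested genes. These were 27.7% up and 28% down in SK-N-SH CRISPRi, 15.2% and 15.5% in SK-N-AS, and 2.55% and 6.98% with siRNA. In SK-N-SH CRISPRi all 9 tested of 10 adrenergic neuroblast markers fell, the list's sum going from 2556 to 2750.1 CPM in controls to 925 to 999 CPM after knockdown. Of 10 mesenchymal markers 7 rose and 2 fell (5905 to 6771 against 10981 to 11603 CPM), and of 8 tested smooth muscle and fibroblast markers 7 rose (917 to 962 against 1522 to 1609.6 CPM). Of the smooth muscle and fibroblast list, 4 rose and 2 fell of 7 tested in SK-N-AS (2000.5 to 2081 against 2184 to 2269 CPM), and 5 rose and none fell of 9 with siRNA (532 to 583 against 577 to 606 CPM). In SK-N-AS 6 of 10 adrenergic markers fell (1608 to 1667 against 1390.4 to 1440.1 CPM), while 8 mesenchymal markers rose and 2 fell (2766 to 2818 against 3043 to 3126 CPM). With siRNA, 7 of 10 mesenchymal markers fell (2642 to 2859 against 2109 to 2380.3 CPM) and 2 of 9 adrenergic markers rose. No defining marker of these 3 lists was at 0 reads in any experiment. Their part in the myosin results was not tested.

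The genes most like MYH9 over the 24 libraries, by Pearson correlation of log2 CPM centred on each experiment's controls, were C1S (r = 0.986), KIRREL1 (0.985) and MIR22HG (0.981). For MYH10 they were FAP (0.977), KIF26B (0.974) and ARSJ (0.971), chosen from 13943 genes. FAP, a surface protease, was at 0.26, 1.23 and -0.56 and KIF26B at 0.05, 0.82 and -0.35 (log2 fold change with siRNA, SK-N-SH CRISPRi and SK-N-AS CRISPRi). C1S, a complement protease, was at -0.06, 2.20 and 0.79. The libraries share experiment, depth and group, so these correlations are given as a description.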

How the data were processed

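The deposited tables hold counts, as whole reads per gene and library, 1 table per experiment. Per the submitters' processing notes the authors used GRCh38, the aligner STAR 2.6.1d, the counter featureCounts 1.5.1, FastQC 0.11.8, CASAVA and 2 releases of bcl2fastq (2.20 and 2.20.0.422). They do not say which of these served each experiment, nor the annotation or the strand setting. Per the labels' protocols, a stranded mRNA kit from Illumina was used for CRISPRi, and mRNA selected on poly-T beads for siRNA. All 24 libraries were used, and genes were matched by Ensembl identifier.

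Each experiment was analysed alone in R 4.3.3 with edgeR 4.0.16: filterByExpr (minimum count 10, minimum total 15), TMM, glmQLFit with robust dispersions, and glmQLFTest, two-sided, adjusted over all genes tested. This left 21018, 15391 and 19277 genes. In data simulated for these experiments the test recovered 93%, 85% and 87% of genes changed 2-fold (100 genes each) and 63%, 32% and 49% of those changed 1.5-fold. The tests of a difference in response recovered 34% (SK-N-SH CRISPRi against siRNA) and 28% (against SK-N-AS) of 2-fold differences and 4% in both of 1.5-fold ones. The simulated counts had the same set dispersion for every gene, which was not estimated from these data. The recovered shares therefore need not hold for genes with a smaller or larger spread, such as the members. The SE was taken from the estimate and the F statistic. Differences in response were interactions over 2 experiments. RPKM used the gene length in the authors' siRNA table for all tables. Alternatives were DESeq2 1.42.0, other scalings and filters, a replicate block and leaving out libraries.

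The members and the gene lists were chosen with earlier results of these data known. All members were named, and from each list up to 4 called genes with the smallest adjusted p in each experiment, or 2 where none was called, of which some are given here, and the 3 genes most correlated with MYH9 and MYH10. MYL9 was not tested, so no such genes were found for it. Of 2 further marker lists, blood markers had 1 tested member with siRNA, none in SK-N-SH CRISPRi and 1 in SK-N-AS, where PTPRC fell, and epithelial markers had 1, 2 and 1 up and 1, 1 and 2 down of 5, 4 and 5 tested. Of all genes tested, 9.53% were called with siRNA, 55.8% in SK-N-SH CRISPRi and 30.6% in SK-N-AS.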

Additional observations from a re-analysis of the deposited data

Results flagged for a closer look

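With siRNA, control replicate 5 had MYH3 at 4.511 CPM, apart from the other controls at 2.65 to 2.96 CPM. Among 24 groups of 4 or 5 libraries examined this way it was the only library so far from the rest, and chance alone marks about 1 group in 20.

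By the interaction test in edgeR, the response differed between SK-N-SH CRISPRi and SK-N-SH siRNA. On the log2 scale this held for MYH9 (0.888), MYH10 (0.55), MYL6 (0.532), MYL12A (0.737) and MYL12B (0.451). The test also called MYH1 (3.47) and MYH2 (3.77), which entered it through their reads in the SK-N-SH CRISPRi knockdown libraries. Both had few siRNA reads, and the MYH2 call failed in 12 alternatives. Between SK-N-SH CRISPRi and SK-N-AS CRISPRi the response differed for MYH9 (0.53), MYH10 (1.08), MYL6 (0.497), MYL12A (0.499) and MYL12B (0.243). MYH10 rose in one line and fell in the other, and for the other 4 the rise was larger in SK-N-SH.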

How the results depend on the processing

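Of 578 comparisons of a member's result with an alternative, 523 kept direction and side of the threshold, 27 lost a call, 8 gained one and 20 changed sign. The sign changes concerned only results that did not pass, which over single omissions ranged from -0.05337 to 0.02741 for MYH9 and from -0.04203 to 0.04628 for MYL6 with siRNA, and for MYH3 from -0.1866 to 0.1438 in SK-N-SH CRISPRi, from -0.1119 to 0.06389 in SK-N-AS and from -0.1501 to 0.1804 in their difference. For MYH9 with siRNA the values were 0.0002932 with DESeq2, 0.0002918 with its size factors in edgeR, 0.02666 with upper quartile factors, 0.00318 with a filter at 1 CPM. MYL6 with siRNA was at -0.005899 with knockdown replicate 4 and control replicate 5 left out together.

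The number of members called with siRNA, 0, became 1 with DESeq2, with upper quartile factors and with no filter, and ranged from 0 to 3 over single omissions. In SK-N-AS, 5 became 3 with no filter, and ranged from 3 to 4 over single omissions. In these the cause was not tested. In SK-N-SH CRISPRi the number, MYH1 and MYH2 included, stayed at 7 under every alternative run. As MYH1 and MYH2 had to differ to be tested, their calls add nothing to this stability. Of all genes, the number called lay between 1406 and 2515 with siRNA, 7363 and 8590 in SK-N-SH CRISPRi and 5149 and 5900 in SK-N-AS over the alternatives, against 2004, 8582 and 5904.

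The MYH9 share of the heavy chain pool differed by -2.243 to -1.438, 1.493 to 2.561 and 10.72 to 11.2 percentage points over single omissions (siRNA, SK-N-SH CRISPRi, SK-N-AS; an alternative chosen after the data were seen, as was the transcript length), and by -1.993 to -1.982, 1.987 to 2.005 and 10.95 to 11.01 points with reads or transcript length in place of the gene length. The MYL12A share of the regulatory chains differed by -1.025 to -0.5426, 3.462 to 4.293 and -0.6424 to -0.1431 points over single omissions.

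Same-numbered knockdown and control libraries did not deviate together (correlations from -0.129 to 0.0479 over all pairs), so numbers were not taken as pairs. With the replicate block, 1532, 8460 and 5894 genes were called, and 0, 7 and 5 members. SK-N-SH CRISPRi has the lowest depth, and a gene at 0 reads there is known only to lie under 0.139 to 0.257 CPM.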

Other observations

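The skeletal heavy chain genes lie in a cluster on chromosome 17. Some of their neighbours, chosen after their values were seen, were read in the SK-N-SH CRISPRi libraries where MYH1 and MYH2 rose. SCO1, a copper chaperone gene at the edge of the cluster, was at 78.3 ± 2.4 and 84.2 ± 1.76 CPM (SD, n = 3; log2 0.10 ± 0.047, adjusted p = 0.0663, edgeR), and ADPRM at 7.47 ± 0.446 and 7.13 ± 0.353 CPM. Antisense genes at 1 end of the cluster, which do not overlap MYH1 or MYH2, lie at 10291820 to 10317926 and 10320392 to 10341458. The first, ENSG00000273388, rose narrowly (0.44 ± 0.19, adjusted p = 0.0428), and ENSG00000264067 did not pass (0.19 ± 0.18, adjusted p = 0.378, edgeR). Among untested neighbours, MYH8 had 0 control and 7 knockdown reads, MYH4 had 0 and 3, and TMEM220-AS1 had 25 and 4.

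In SK-N-AS, where MYH1 and MYH2 had 0 reads, MYHAS, an antisense RNA gene that spans the cluster on the plus strand (chromosome 17, 10291816 to 10684235), rose from 2.06 ± 0.191 to 4.5 ± 0.333 CPM (SD, n = 4), with 517 control and 1352 knockdown reads (log2 1.12 ± 0.11, adjusted p = 5.95e-10, edgeR). In the SK-N-SH experiments MYHAS was not among the cluster genes with enough reads to be listed. Antisense reads there fell on shorter genes within the same span, such as ENSG00000273388 and ENSG00000264067. The gene models may differ between the tables, so the MYHAS rise cannot be called particular to SK-N-AS. Whether the 0 reads of MYH1 and MYH2 depend on the gene model was not tested. The sources used here do not give the strand setting, so reads of sense and antisense genes in this cluster cannot be told apart from these tables.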
